A study of Mus musculus with 5 samples.

Results

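Growth hormone acts on hepatocytes through the receptor GHR, and the 10 genes followed here are that receptor, its relative PRLR, the kinase and transcription factors that carry their signal, 4 feedback inhibitors, and the repressor BCL6. They are Ghr, Prlr, Jak2, Stat5a, Stat5b, Cish, Socs1, Socs2, Socs3 and Bcl6. The list was chosen by name and selected on measured values, the treated minus control log2 intensities of these 5 arrays, where Cish and Bcl6 had already stood out. For each, the probe set with that 1 gene symbol and the highest mean log2 intensity over the 5 arrays was used. The array's annotation held such a probe set for 9 of the 10, among 18820 genes named in this way, and Prlr was not listed in it and is not analysed here. Socs2 and Socs3 had 2 probe sets each, and the others had 1. That contrast is the one described below, so each member's difference is a description and carries no test.

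Binding of growth hormone to GHR activates the kinase JAK2, which phosphorylates STAT5A and STAT5B; these enter the nucleus and switch on target genes. Among the targets are Cish and Socs2, whose products bind the receptor complex and damp the signal, and Igf1, which encodes the main circulating growth factor of the axis. BCL6 is a transcriptional repressor that recognises sequences much like those bound by STAT5, and in liver it is known to share sites with STAT5 and to counter it at sex-biased genes.

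The samples were livers of adult C57Bl/6 mice, 3 from animals given rat IgG as control and 2 from animals given M279, an antibody that blocks the macrophage receptor CSF1R. Each dose was 300 µg into the peritoneum, 3 times a week over 6 weeks. RNA was amplified as cDNA before labelling, and 1 array was run per liver sample. The labels state neither the sex of the mice, the hour of killing and feeding state, nor whether each sample came from a single animal, so SE and SD measure the spread between these samples only. The array medians lay between 32.5 and 33.9 intensity units. Hepatocyte markers were bright on every array, (11 measured markers, log2 means from 11.52 to 13.13), and their summed intensity was 71235 to 73446 in controls and 69501 to 71184 in treated liver. Xist, the RNA of the inactive X chromosome, lay between 3.10 and 3.34 on the log2 scale, while the Y-linked Eif2s3y lay between 8.73 and 9.04, so all 5 arrays carried Y-linked RNA. Csf1r itself was lower in treated liver, at 7.93 and 8.12 against 8.49, 8.68 and 8.61 in controls (log2 difference -0.56 ± 0.12, SE).

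Cish, encoding an SH2-domain inhibitor of cytokine receptors that STAT5 induces, was the member with the largest difference. Its intensity was 185, 376 and 319 in the 3 control livers and 102 and 71.9 in the 2 treated livers. Both treated arrays lay below every control, although the controls themselves spanned 2.03-fold. Mean log2 intensity was 8.14 ± 0.53 for controls (SD, n = 3) against 6.42 ± 0.36 after the antibody (SD, n = 2). The treated mean was thus 3.28-fold lower, by a log2 difference of -1.71 ± 0.33 (SE). Among the 18820 named genes it had the 4th lowest difference, after Saa2 (-2.97), Ccl3 (-2.26) and Chrna4 (-2.03). Treated replicate 1 stood at -1.46 and replicate 2 at -1.97 from the control mean, and the difference lay between -2.01 and -1.46 when any 1 array was left out.

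Bcl6 differed in the other direction. Its intensity was 212, 220 and 103 in controls and 337 and 559 in treated liver. The treated arrays were both above the controls, of which replicate 3 was the low one. The log2 means stood at 7.40 ± 0.62 for controls (SD, n = 3) and 8.76 ± 0.52 after the antibody (SD, n = 2), a difference of 1.36 ± 0.39 (SE) or 2.57-fold. Only Rgs16 (1.53), an inhibitor of G protein signalling, had a higher difference among the 18820 genes. Treated replicate 1 stood 1.00 and treated replicate 2 stood 1.73 above the control mean. Treated replicate 2 thus had both the lowest Cish and the highest Bcl6, but within controls the order was different: replicate 2 was the highest of the 3 for both genes. Control spread was wide for both genes, with control SDs at percentile 99.4 (Cish) and 99.6 (Bcl6) of all named genes. Socs2 had a larger control SD (0.65), while Ghr (0.08), Stat5a (0.05) and Stat5b (0.11) had smaller ones.

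**Figure D1:**
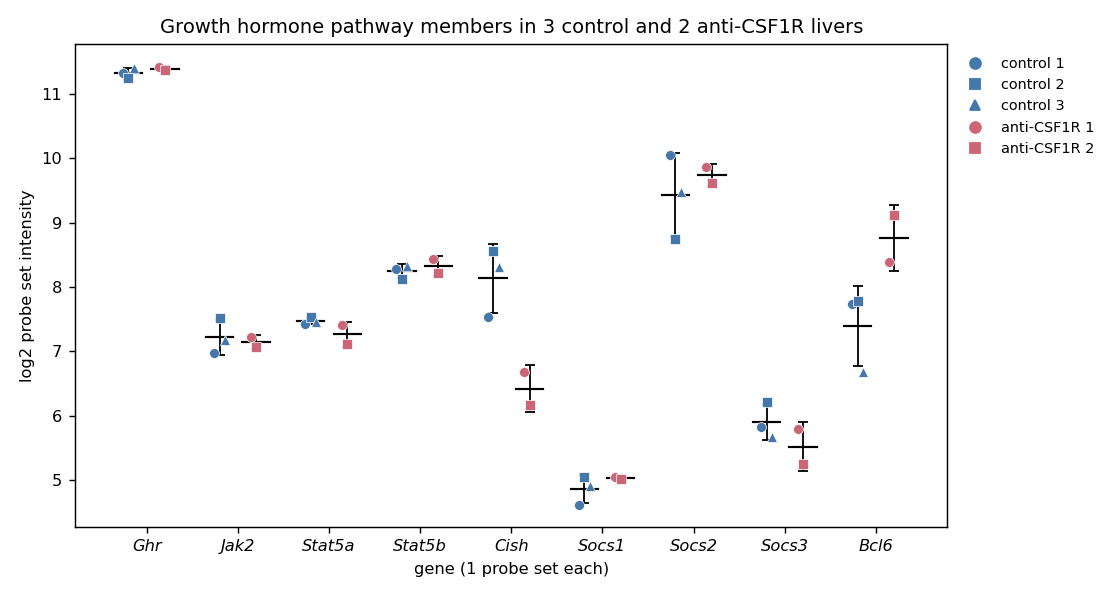
Log2 probe set intensity of the 9 measured members on each array, blue for 3 control and red for 2 anti-CSF1R livers, with horizontal bars at group means and vertical bars of 1 SD. For Cish and Bcl6 the groups are apart, at 8.14 against 6.42 and 7.40 against 8.76, as their choice entails. Those of Stat5a are also apart, with a smaller difference. Levels of different genes come from different probe sets and are not comparable.

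The sequences ahead of the Cish and Bcl6 start sites are shown because STAT5 dimers and BCL6 both recognise the palindrome TTCNNNGAA. Socs3 is added as an inhibitor whose window holds the palindrome. Capitals mark each TTCNNNGAA, which is its own reverse complement, so that 1 search covers both strands. The 250 bases before each start are given 5′ to 3′ on the gene's strand, from RefSeq, build GRCm38.p6. Cish lies on the + strand (chr9:107296409-107296658). Bcl6 has 2 annotated starts on the - strand, an upstream one (chr16:23988853-23989102) and a downstream one (chr16:23981284-23981533). Socs3 lies on the - strand (chr11:117969367-117969616).
Cish: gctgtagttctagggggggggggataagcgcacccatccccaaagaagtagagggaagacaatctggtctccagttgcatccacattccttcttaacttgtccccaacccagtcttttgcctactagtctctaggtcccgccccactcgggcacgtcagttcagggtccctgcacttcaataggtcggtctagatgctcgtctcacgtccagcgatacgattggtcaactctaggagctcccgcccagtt
Bcl6 upstream start: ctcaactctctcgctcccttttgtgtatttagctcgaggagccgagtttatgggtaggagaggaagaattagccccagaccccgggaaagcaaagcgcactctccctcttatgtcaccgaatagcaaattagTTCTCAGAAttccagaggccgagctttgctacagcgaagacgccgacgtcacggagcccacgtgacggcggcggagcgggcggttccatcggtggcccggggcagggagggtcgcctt
Bcl6 downstream start: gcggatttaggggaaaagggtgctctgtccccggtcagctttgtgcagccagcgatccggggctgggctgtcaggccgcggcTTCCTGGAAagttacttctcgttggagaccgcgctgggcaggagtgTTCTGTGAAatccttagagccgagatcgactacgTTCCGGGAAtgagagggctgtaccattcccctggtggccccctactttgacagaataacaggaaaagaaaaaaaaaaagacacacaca
Socs3: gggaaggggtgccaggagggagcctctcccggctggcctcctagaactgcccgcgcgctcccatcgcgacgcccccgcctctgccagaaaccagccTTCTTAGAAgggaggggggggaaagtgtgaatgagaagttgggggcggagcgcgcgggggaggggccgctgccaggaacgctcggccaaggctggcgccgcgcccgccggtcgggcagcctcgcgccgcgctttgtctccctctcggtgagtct

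Of 32851 windows of this length in the table, 7.02% held the motif at least once and 0.0274%, or 9 windows, held it 3 times. The window at the downstream start of Bcl6 was among those 9, with TTCCTGGAA, TTCTGTGAA and TTCCGGGAA beginning 168, 122 and 88 bases before the start. The upstream start of Bcl6 had 1 copy, TTCTCAGAA, and Socs3 had TTCTTAGAA. The Cish window held none, and sequence outside the windows was not searched. In all, 9 members had 15 windows, 4 of them with the motif; besides those printed this was 1 of 3 for Prlr, and Socs2 was not in the table. A match is a run of letters and was not measured as a binding site here.

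The receptor and its direct signal carriers differed little. Ghr had log2 values of 11.32, 11.24 and 11.41 in controls and 11.42 and 11.37 in treated liver. Treated replicate 1 was just above the highest control and replicate 2 within the control range, for a difference of 0.07 ± 0.11 (SE; 0.03 to 0.11 with any 1 array left out). Jak2 gave 6.97, 7.52 and 7.17 against 7.22 and 7.07, both treated values inside the control range. Its difference of -0.08 ± 0.18 turned to 0.07 without control replicate 2, the highest array, and was positive too with quantile normalization or cyclic loess. Stat5b, the main STAT5 of hepatocytes, gave 8.28, 8.13 and 8.33 against 8.43 and 8.21, a difference of 0.08 ± 0.13 (-0.03 with treated replicate 2 alone and 0.19 with replicate 1 alone). Stat5a was at 7.43, 7.53 and 7.46 in controls and 7.41 and 7.12 in treated liver. Treated replicate 1 was just below the lowest control and replicate 2 clearly below it. The difference of -0.21 ± 0.13 was -0.07 with treated replicate 1 alone, -0.35 with replicate 2 alone and -0.08 with quantile normalization or cyclic loess.

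The other inhibitors of the family did not share the pattern of Cish. Socs2, like Cish a STAT5 target that acts on GHR, had values of 10.06, 8.75 and 9.47 in controls and 9.87 and 9.62 in treated liver. The treated values sat inside a control range of 2.47-fold, and the difference was 0.32 ± 0.36 (SE), or -0.02 without control replicate 2 and 0.63 without control replicate 1. Its second probe set gave the same order of arrays, 6.59, 5.44 and 6.24 against 6.58 and 6.36, with a difference of 0.38 ± 0.33. Among controls, replicate 2 had the highest Cish with the lowest Socs2, and replicate 1 had the lowest Cish with the highest Socs2. Both treated livers combined low Cish with Socs2 inside the control range.

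Socs1, an inhibitor of JAK kinases best known downstream of interferon, had values of 4.62, 5.05 and 4.91 in controls and 5.04 and 5.01 in treated liver. The groups overlapped, with a difference of 0.17 ± 0.15 (0.05 without control replicate 1 and 0.27 without control replicate 2). Socs3, which restrains IL-6 signalling through gp130, gave 5.82, 6.21 and 5.67 against 5.79 and 5.25. Treated replicate 1 lay within the controls and replicate 2 below them, for a difference of -0.38 ± 0.23, or -0.11 with treated replicate 1 alone and -0.65 with replicate 2 alone. The second Socs3 probe set, matched to another transcript record, went the other way, at 4.69, 4.64 and 4.74 against 4.97 and 4.90 (0.25 ± 0.10). The direction for Socs3 therefore depends on the probe set.

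In all, 3 of the 9 measured members (33.3%) had groups that did not overlap: Bcl6 higher, and Cish and Stat5a lower. Over the 18820 named genes this held for 44.6% (25.1% higher and 19.5% lower), and over all 35556 probe sets for 41.2% (24.3% higher and 16.9% lower). Separate groups together with a difference of at least 2-fold were found for 7 genes higher (0.0372%) and 34 lower (0.181%), Bcl6 and Cish among them, as their choice entails. The count of 3 was 4 or 5 with any 1 array left out. It was 4 without control replicate 1, control replicate 2 or treated replicate 1. The share over all genes was then 57.6%, 54.1% and 71.7%. The count was 5 without control replicate 3 or without treated replicate 2, where the share over all genes was 52.3% and 65.7%. The median difference of the 9 members was 0.07 and that of all named genes 0.04. At an adjusted p under 0.05 in limma's two-sided test over all 35556 probe sets, 0% were called higher and 0% lower, and 0 of the 9 members were called. Without adjustment, 3594 probe sets (10.1%) were higher and 2965 (8.34%) lower at p under 0.05. A fit on 1 probe set per gene called 5 genes higher and 9 lower (0.0266% and 0.0478%), with 0 members among them; of the list genes named below, Npas2, Angptl4 and Marco were among those called.

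**Figure D2:**
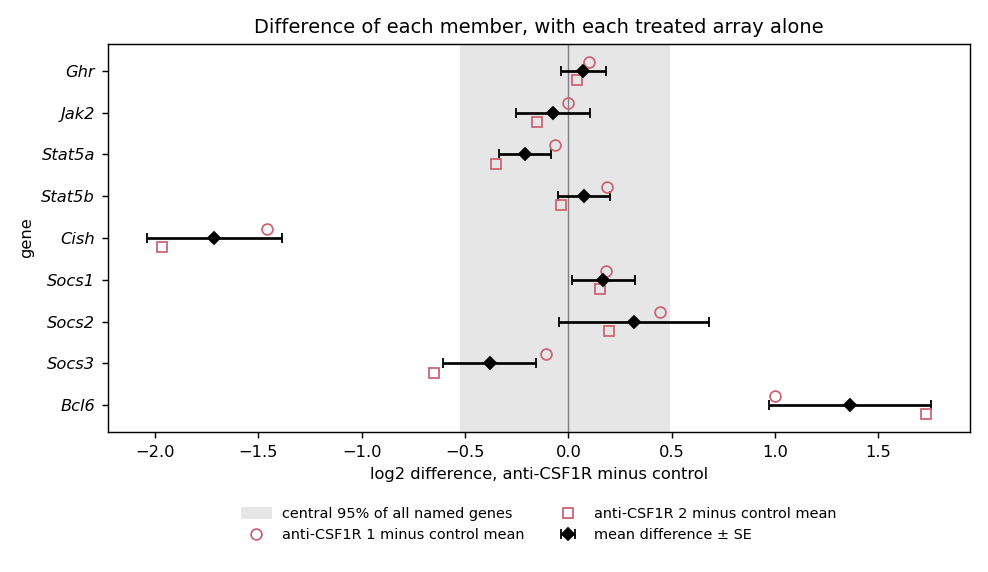
Log2 difference of each member between anti-CSF1R and control livers (diamonds, ± SE), with the difference of treated replicate 1 (open circles) and 2 (open squares) from the control mean, over a grey band from -0.52 to 0.48 that holds the central 95% of the 18820 named genes. Cish at -1.71 and Bcl6 at 1.36 lie outside the band, and the other 7 mean differences lie inside it.

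Of 28 measured genes for other parts of JAK-STAT signalling 26 were lower and 2 higher, with a median of -0.14, and 0 passed in either direction. Over all named genes 43.7% were lower. Stat2, a carrier of interferon signals, was at 8.70 and 8.31 in treated liver against 9.15, 9.11 and 9.12 (-0.62 ± 0.14, SE), and the kinase gene Tyk2 at 6.94 and 6.90 against 7.28, 7.38 and 7.43 (-0.45 ± 0.11). The adaptor genes Grb2 (0.23 ± 0.11) and Irs1 (0.34 ± 0.13) were the 2 higher ones. Differences over all genes moved with intensity: in 4 bands of equal size the median was 0.18, 0.12, -0.15 and -0.06 from the dimmest to the brightest. The share of lower genes was 10.1%, 31.1%, 75.0% and 58.8% in the same order. The 28 genes had mean log2 levels from 4.95 to 9.86, and their median was near that of the third band (levels from 5.59 to 7.75). With quantile normalization or cyclic loess 21 of the 28 were lower, with medians of -0.06 and -0.05, and without treated replicate 2 the median was -0.09 (24 lower). Of 16 other receptors that signal through JAK2, 9 were higher and 7 lower and 0 passed, with a median of 0.09 (0.02 when control replicate 2 was left out, 0.03 when treated replicate 2 was). The leptin receptor gene Lepr was at 0.56 ± 0.22, the interferon gamma receptor gene Ifngr1 at -0.36 ± 0.11 and the dim Il5ra at 0.39 ± 0.10.

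Among targets of the growth hormone axis in hepatocytes, Igf1 was at 11.22, 11.30 and 11.30 in controls and 11.25 and 11.30 in treated liver, a difference of 0.01 ± 0.10 (SE). Igfals, which stabilises circulating IGF1, was at 9.01, 8.46 and 9.08 against 8.93 and 8.91 (0.07 ± 0.20; -0.12 without control replicate 2). Of 11 measured genes known to be induced by growth hormone or STAT5, 5 were higher and 6 lower, and 0 passed. The median was -0.00339, turned to 0.03 with arrays centred on their medians, and ran from -0.12 without control replicate 2 to 0.03 without treated replicate 1. The lower ones included Onecut1, a hepatocyte transcription factor, with 9.96, 9.52 and 10.13 against 9.11 and 7.62 (-1.51 ± 0.44), and the cell cycle inhibitor Cdkn1a (-1.33 ± 0.31), while Cdkn2b was at 0.60 ± 0.13. The difference of Onecut1 was carried mostly by treated replicate 2, the array with the lowest Cish. Of 12 insulin-like growth factor genes, receptors and binding proteins, 9 were higher and 3 lower (median 0.08; 0.02 without control replicate 2 and 0.04 without treated replicate 1, with 5 lower in each case). Igfbp7 was at 0.16 ± 0.10. Igf2r was at -0.30 ± 0.14, or -0.12 with treated replicate 1 alone and -0.48 with replicate 2 alone.

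Genes known to rise in liver that lacks growth hormone or STAT5 signalling, most of them for fat uptake and storage, gave 4 higher and 6 lower of 10, with 0 passed. The median was -0.14, but -0.01 without treated replicate 2, -0.04 without control replicate 3 (5 lower) and -0.21 without control replicate 1 (8 lower). Cidea, a lipid droplet gene, was dim and at 0.55 ± 0.11 (SE), and Lpl, lipoprotein lipase, at -0.44 ± 0.12. Pparg (-0.18 ± 0.16) and Cd36 (-0.31 ± 0.24) overlapped between groups.

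Sex-biased liver genes depend on the pulses of growth hormone and are bound by STAT5 and BCL6. Of 22 male-biased genes measured, 14 were higher and 8 lower, with a median of 0.06 that lay between 0.02 and 0.09 under the other scalings. Without control replicate 2, 11 were higher and 11 lower, with a median of 0.01. Hsd3b5, a steroid reductase gene, was at 11.10 and 11.37 against 11.02, 10.55 and 10.99 (0.38 ± 0.18, SE; 0.23 without control replicate 2), and Mup21, of the major urinary proteins, at 9.28 and 9.74 against 9.12, 8.93 and 9.15 (0.44 ± 0.17; 0.21 without treated replicate 2). Of 26 female-biased genes 15 were higher and 11 lower, with a median of 0.14, or -0.02 without control replicate 1 and 0.03 without treated replicate 1. The female-biased cytochrome P450 gene Cyp2b10 was at 5.35 and 5.24 against 6.32, 7.15 and 6.81 (-1.47 ± 0.24) and Fmo4, a flavin monooxygenase gene, at -0.73 ± 0.16. Cyp2b9, a related gene with female bias, overlapped between groups (-0.16 ± 0.31). None of these genes passed in limma over all probe sets (0 higher and 0 lower), and 31.8% of the male-biased and 34.6% of the female-biased genes had groups that did not overlap, against 44.6% of all named genes.

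Of 17 genes for BCL6 corepressors and relatives 6 were higher and 11 lower, and the median of -0.01 turned positive under each of the other scalings (0.02 to 0.08) and was -0.11 without control replicate 2. Bcorl1 was at -0.32 ± 0.11 (SE), the repressor gene Zbtb7a at -0.45 ± 0.18 (-0.16 without treated replicate 2) and the paralogue Bcl6b at 0.10 ± 0.11. Of 17 genes known to be repressed by BCL6 in lymphocytes 13 were lower and 4 higher (median -0.15; -0.08 without treated replicate 1), and 0 passed. Their groups did not overlap for 58.8%, against 44.6% of all named genes. Myc was at -0.99 ± 0.38, Cd44 at -0.56 ± 0.18, the checkpoint kinase gene Atr at -0.38 ± 0.11 and the dim Irf4 at 0.40 ± 0.12. Prdm1, the classic BCL6 target, was at 4.55, 4.58 and 4.43 against 4.51 and 4.50 (-0.01 ± 0.11). Ccl3, a chemokine gene, had the largest difference of the list (-2.26 ± 1.42) with overlapping groups, at 9.83 in control replicate 2 against 6.26 and 4.71 on the other controls and 4.07 and 5.28 in treated liver.

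**Figure D3:**
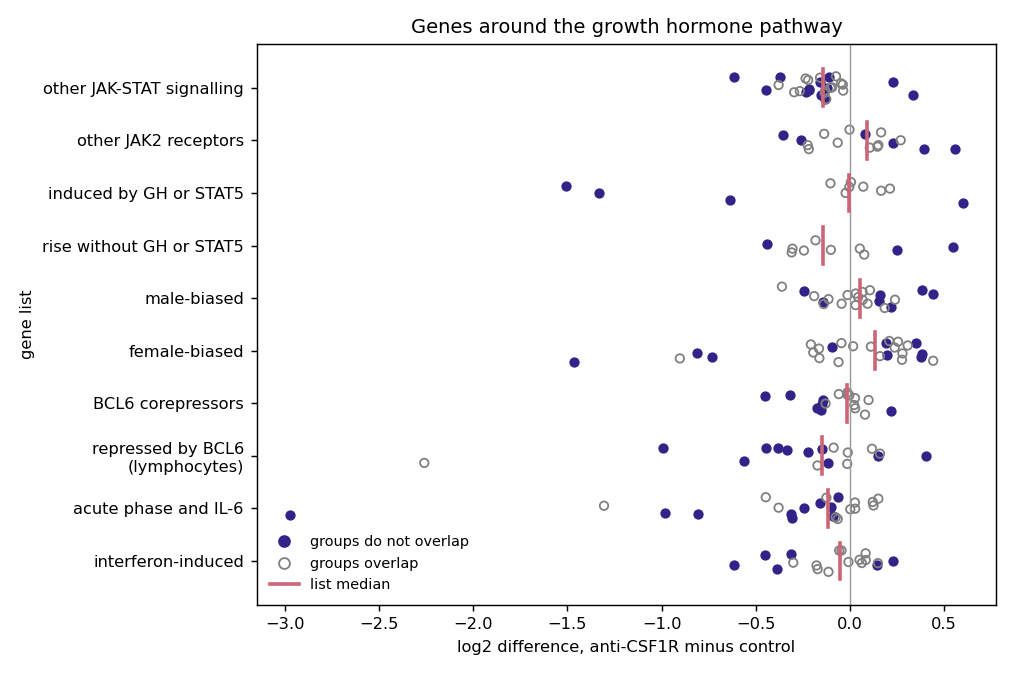
Log2 difference between anti-CSF1R and control livers for each measured gene of 10 lists around the pathway, filled where the groups do not overlap and open where they do, with a red bar at each list's median. The medians run from -0.15 for genes repressed by BCL6 to 0.14 for female-biased genes, while single genes reach -2.97 (Saa2).

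Genes that act with SOCS3 and SOCS1 were also followed. Of 22 acute phase and IL-6 signalling genes 16 were lower and 6 higher (median -0.11) and 0 passed. The serum amyloid gene Saa2 was at 6.29 and 7.03 against 10.69, 8.38 and 9.82 (-2.97 ± 0.65, SE), Lcn2 at -0.98 ± 0.26 and Stat3 at -0.38 ± 0.20. Il1b, an inflammatory cytokine gene, was at 8.08 in control replicate 2 against 6.78 and 5.14 in the other controls. Among controls, that array also had the highest Cish, Bcl6, Jak2, Stat5a, Socs1 and Socs3. It had the lowest Ghr, Stat5b, Socs2 and Saa2. Of 18 interferon-induced genes 11 were lower and 7 higher (median -0.05, but 0.03 with quantile normalization, 0.02 with cyclic loess, 0.06 without control replicate 2 and -0.18 without control replicate 1), with Oasl1 at -0.39 ± 0.14.

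Markers of clock phase and feeding were measured beside these, since growth hormone signals vary with both. Of 16 clock genes 11 were lower and 5 higher (median -0.20; -0.08 without treated replicate 2), with Npas2 at 7.10 and 6.59 against 8.29, 8.49 and 8.05 (-1.43 ± 0.20, SE) and Per2 at -0.47 ± 0.11. Of 15 fasting and feeding genes 9 were lower and 6 higher. The median of -0.22 turned to 0.03 without treated replicate 2 (7 lower) and was -0.40 without treated replicate 1 (10 lower). The list included Angptl4 at 1.15 ± 0.13 and the lipogenic Srebf1 at -0.83 ± 0.14. Igfbp1, which rises in fasting, overlapped between groups (-0.69 ± 0.60). The part of clock phase or feeding in the Cish and Bcl6 differences was not tested.

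Bcl6 and the SOCS genes are also expressed by leukocytes, and in bulk liver fewer cells of a type and less RNA per cell cannot be told apart. Of 18 macrophage and Kupffer cell markers 15 were lower and 3 higher, with summed intensity of 5955 to 6826 in controls and 4737 to 6290 in treated liver. Marco (1.34 ± 0.17, SE) and Cd163 (-0.80 ± 0.16) had the smallest p. The list's median stood at -0.56 on treated replicate 1 but at -0.01 on replicate 2 (9 of 18 lower without replicate 1). B cell and plasma cell markers summed to 1048 to 1102 in controls and 904 to 1061 in treated liver, with 6 of 11 higher (5 with quantile normalization and 4 with cyclic loess), Pax5 at 0.39 ± 0.12 (0.26 without treated replicate 1) and Jchain at 0.58 ± 0.17 (0.31 without treated replicate 1). The brightest of the 11 had a mean log2 level of 9.50 and 6 were under 5, so that sum mostly follows its brightest gene. T and NK cell markers summed to 308 to 363 in controls and 346 to 400 in treated liver. Of 14, 11 were higher (9 with quantile normalization and 8 with cyclic loess). Among them were Cd8b1 (0.31 ± 0.13) and Cxcr5 (0.41 ± 0.16), the latter not particular to T or NK cells. Neutrophil markers summed to 189 to 216 in controls and 228 to 242 in treated liver. Of 11, 8 were higher (7 with quantile normalization and 6 with cyclic loess), such as S100a9 (0.31 ± 0.10) and Elane (0.33 ± 0.10). Most T cell and neutrophil markers were dim, 10 of 14 and 10 of 11 being under 5 on the log2 scale. Most dim genes of any kind were higher in treated liver. Among all named genes, 10.1% were lower in the dimmest band (levels up to 3.81) and 31.1% in the next (up to 5.59). Whether the counts of higher T cell and neutrophil markers exceeded those of other genes of like level was not tested. Cholangiocyte markers gave 4 of 7 lower (Sox9 at -0.51 ± 0.15, Muc1 at -0.44 ± 0.13), endothelial markers 7 of 12 lower (6 with quantile normalization or cyclic loess; Clec4g at 0.31 ± 0.10, Fcgr2b at 0.18 ± 0.12), stellate cell markers 8 of 12 higher (Lrat at 0.36 ± 0.12, Rgs5 at 0.38 ± 0.10) and hepatocyte markers 6 of 11 lower, but 4 with centred arrays and all 11 with cyclic loess (Hnf4a at -0.18 ± 0.11, Tat at -0.29 ± 0.14, or -0.12 without treated replicate 2). The part of these cell types in the Cish and Bcl6 differences was not tested.

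Likeness to Cish and Bcl6 was measured as the root mean square (RMS) difference over the 5 arrays, after each gene's log2 values were centred on its control mean. The genes most like Cish were Cyp2b10 (RMS difference 0.22), the nicotinic receptor gene Chrna4 (0.25), Npas2 (0.38), the lipid hydrolase gene Pnpla3 (0.40) and Alas1, the first enzyme of haem synthesis (0.41). The median over all genes was 1.18. Control replicate 1 was below the control mean for Cyp2b10, Chrna4, Pnpla3 and Alas1 as it was for Cish, and Npas2 stood there at 0.01. Those most like Bcl6 were Marco (0.32), the metallothionein gene Mt2 (0.37), Mrgpra9 (0.40), Klra4 (0.47) and 9030619P08Rik (0.47), against a median of 0.96. Control replicate 3 was the lowest control in all 5, as in Bcl6. The controls entered the RMS difference, so the choice by likeness favours a shared order of controls as well. Against a flat pattern at the control mean, Cish itself gave 1.15 and Bcl6 0.98, near the medians over all genes.

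**Figure D4:**
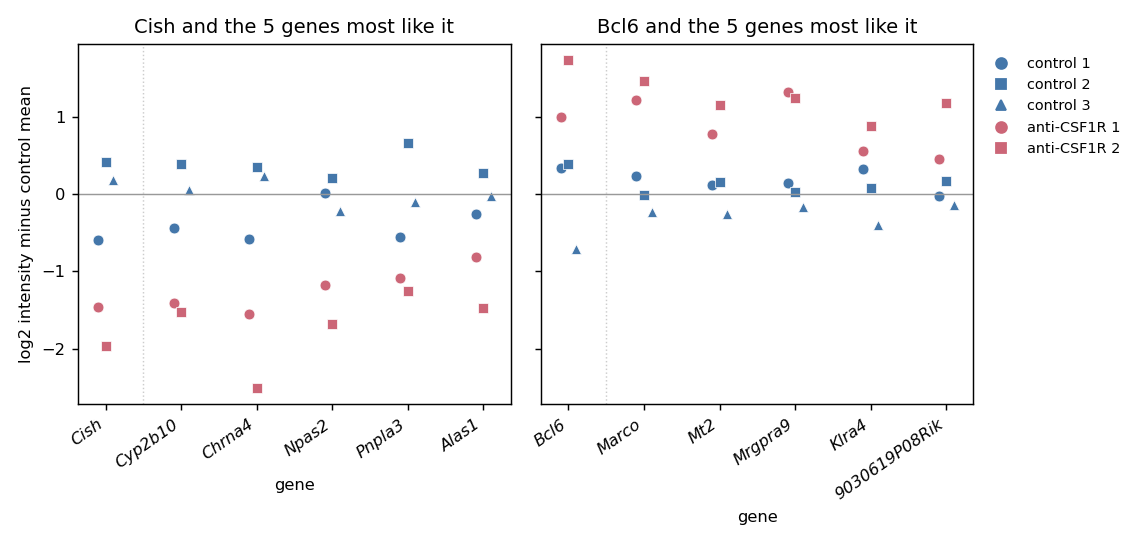
Log2 intensity minus the control mean on each array for Cish and the 5 genes most like it, and for Bcl6 and its 5, blue for control and red for anti-CSF1R livers. Treated livers stand at -1.46 and -1.97 for Cish and at 1.00 and 1.73 for Bcl6, and every gene shown has both treated arrays on the same side of its controls, which the choice by likeness favours.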

How the data were processed

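Liver RNA of 3 control and 2 anti-CSF1R samples was measured on 1 array each. The deposited values are probe set intensity on a linear scale, made with Affymetrix Expression Console 1.1 per the submitters' processing notes; the background correction and normalization were "not given in the sources used here", so shifts with intensity between arrays can remain. Log2 was taken with no pseudocount or filter. Of 35556 probe sets 21218 had 1 gene symbol, 1881 several, and 12457 were unlisted; the brightest one stood for each of 18820 genes. Testing used R 4.3.3 and its package limma 3.58.1 (a linear model per probe set with eBayes, two-sided, Benjamini-Hochberg over all probe sets, threshold 0.05), tested on simulated data. With 2 arrays against 3, 0.1 is the smallest p of an exact permutation test. Precision is limited by how few arrays there were, with a median SE of 0.138.

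The members and the 22 gene lists were chosen with earlier results of these data known. Named were all members, Igf1, Igfals, Csf1r, the sex chromosome genes, up to 2 genes of smallest p with separate groups per list, and 5 genes most like Cish and Bcl6; other genes were chosen after their values were seen. Alternatives were 3 scalings, a pseudocount of 16, a filter on dim probe sets, other choices of probe set, eBayes with trend, weighted arrays, a replicate block, and each array left out in turn. Promoters came from RefSeq (GRCm38.p6). Figures used matplotlib 3.10.9 in Python 3.11.15.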

Additional observations from a re-analysis of the deposited data

How the results depend on the processing

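The counts of called probe sets were 0 higher and 0 lower under every alternative run except the fit on 1 probe set per gene, which gave 5 and 9. Cish kept its direction and moved by less than 1 SD under all of its alternatives (-2.01 to -1.46), as did Bcl6 (1.00 to 1.73). With the replicate number as a block, Cish was at -1.62 and Bcl6 at 1.01, and 0 probe sets were called. Samples with the same number did not deviate together over all probe sets (correlations of 0.0268 and 0.0325). The labels do not say what the number stands for, and a pairing that touched few genes could be missed by these correlations. Stat5a was at -0.08 with quantile normalization or cyclic loess. The sign turned for Jak2, Stat5b and Socs2 under the settings named with them, and that of Socs3 with its other probe set, so those 4 have no settled direction. Ghr, Socs1 and Stat5a kept their sign, but the alternatives reuse the same 5 arrays, so this does not settle a direction either. With 2 treated arrays, differences smaller than the SE given with each gene could not be told from 0. A difference larger than its SE was not thereby set apart from 0 either, and limma over all probe sets called none after adjustment. Of 92 alternative values of the members' differences 88 moved by less than 1 SD, and the other 4 were those of Stat5a given with it.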
